A study of Mus musculus with 10 samples.

Results

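T and natural killer (NK) cell transcripts were followed through hippocampal RNA of hMapt mice, animals carrying the human gene for tau. The 33 genes were chosen by symbol, as a list of T and NK cell genes together with the Gimap family, and with the counts of these same libraries already known. They make up 33 of the 21956 genes measured, and all 33 symbols matched 1 gene each. One group comprised 5 hMapt mice injected with AAV-circTau6, an adeno-associated virus that delivers the circular RNA circTau6, and sampled 80 days later. The other comprised 5 hMapt mice labelled control, which were control-injected per the extraction notes, with no further detail. All were 6 months old, and both groups carry the same genotype label. The sources used here do not name the promoter of the vector or the cells it reached. Because the list was drawn up with these data known, differences of its members between the groups are described here and support no test.

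T cells recognise peptides held by MHC molecules through the T cell receptor, whose chains signal through the CD3 and CD247 subunits. The receptor comes with CD4 or CD8 as coreceptor, and the kinases Lck and Zap70 carry the first signal inward. Cytotoxic T cells and NK cells kill with granzymes. Gimap genes encode small GTPases of lymphocytes, several of which are needed for lymphocyte survival in mice. In the brain, T cells are rare under resting conditions and are found mostly in the meninges, the choroid plexus and blood vessels, so hippocampal RNA holds few of their transcripts. In bulk tissue, more cells of a type and more RNA per cell cannot be told apart.

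The Gimap genes also show why single rows have to be read with care. In GRCm38 (GENCODE M21, matched by gene ID because the build used for the counts is not given), the 8 Gimap members lie within 123.6 kb of chromosome 6, from 48647234 to 48770851. Gimap3 and Gimap5 are close copies: over 898 aligned coding bases 89.9% were identical, and the longest identical run was 140 bases, just short of a sequenced read. No other pair had an identity above 74.1% or an identical run above 17 bases. The 74.1% was that of Gimap8 with Gimap9, of 2064 and 873 coding bases. Identity leaves gaps out, so pairs of unlike length can look closer than they are. The stretches below, 150 coding bases of each gene from an ungapped part of their alignment, differ at 26 positions, shown in capitals. They are given because Gimap3 was 1 of 2 members whose groups did not overlap, while Gimap5 was 1 of 2 members with a lower mean in circTau6.
Gimap3: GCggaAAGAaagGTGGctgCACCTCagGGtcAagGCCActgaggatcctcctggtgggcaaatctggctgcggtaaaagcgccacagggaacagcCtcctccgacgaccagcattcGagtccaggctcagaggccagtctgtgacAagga
Gimap5: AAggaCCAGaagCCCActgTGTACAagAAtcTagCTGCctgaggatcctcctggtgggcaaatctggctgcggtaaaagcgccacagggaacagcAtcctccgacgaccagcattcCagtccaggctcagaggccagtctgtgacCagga
Of the 50-base stretches of the longest Gimap3 transcript, 9.83% also occur in another gene, and for Gimap5 the share was 15.1%. How the counting assigned such reads is not given, so the split between both rows is uncertain.

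Promoters of the members were read from RefSeq (GRCm38.p6), which held 26 promoter sequences for 22 of the 33 genes, each with 250 bases before and 50 after a start site. The core of the motif bound by ETS factors, AGGAAG on either strand, was found in 18 of the 26 (69.2%) and in 35.4% of 32851 promoters searched. The RUNX core TGTGGT, on either strand, was found in 9 of 26 (34.6%) and in 16.8% of the promoters searched. The STAT pattern TTCNNNGAA was in 8 of 26 (30.8%), against 8.3% of those searched, and the interferon regulatory factor pattern GAAANNGAA, on either strand, in 0 of 26, against 8.56%. The searched patterns can overlap, and a match is no evidence of binding. The promoters of Gimap3 (chr6:48770802-48771101, minus strand) and Cxcr6 (chr9:123806227-123806526, plus strand) are shown as examples picked after the values were seen, a Gimap gene and a chemokine receptor with higher means in circTau6. Capitals mark ETS and RUNX cores.
Gimap3: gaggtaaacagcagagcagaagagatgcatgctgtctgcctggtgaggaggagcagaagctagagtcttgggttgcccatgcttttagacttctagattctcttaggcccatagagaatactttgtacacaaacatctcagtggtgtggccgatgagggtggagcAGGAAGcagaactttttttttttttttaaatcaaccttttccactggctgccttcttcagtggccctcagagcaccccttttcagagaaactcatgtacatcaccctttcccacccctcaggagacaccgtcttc
Cxcr6: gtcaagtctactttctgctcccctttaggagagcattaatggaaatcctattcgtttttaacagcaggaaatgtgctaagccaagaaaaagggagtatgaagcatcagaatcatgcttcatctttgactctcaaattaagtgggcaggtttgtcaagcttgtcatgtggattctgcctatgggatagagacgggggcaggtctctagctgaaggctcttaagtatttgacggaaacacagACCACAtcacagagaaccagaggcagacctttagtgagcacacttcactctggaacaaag
The Gimap3 window held 1 ETS core, no RUNX core and 1 STAT pattern, and the Cxcr6 window held 1 RUNX core and none of the others.

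The libraries held 14762952 to 17647138 counts in circTau6 and 15051882 to 17643921 counts in control mice. A count of 3, taken as the limit of detection and covering counting error only, equals at most 0.203 CPM (counts scaled to the library total) in circTau6 and 0.199 CPM in control libraries. One library of each group stood apart from the rest. Choroid plexus markers, of the tissue that makes cerebrospinal fluid, summed to 270 CPM in circTau6 library 5 and 268 CPM in control library 2. They summed to 3084 to 9381 CPM in the other circTau6 and 4959 to 7766 CPM in the other control libraries. Markers of hippocampal neurons were present throughout, at 3624 to 3851 CPM in circTau6 and 3614 to 3988 CPM in control libraries.

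Taken as a sum, the 33 genes were scarce in both groups and higher in circTau6 mice. They gave 432, 516, 471, 486 and 316 counts in circTau6 libraries 1 to 5, against 251, 287, 246, 216 and 282 in control libraries 1 to 5. Scaled to library size this was 26.6 CPM ± 3.57 (SD, n = 5) in circTau6 and 16.01 CPM ± 1.97 (SD, n = 5) in control mice, a ratio of 1.66. The groups did not overlap, with 21.4 to 30.02 CPM in circTau6 and 13.9 to 18.7 CPM in control libraries. Library 5 of the circTau6 group, the one poor in choroid plexus transcripts, was the lowest of its group. With it and control library 2 left out, the log2 ratio was 0.82, against 0.73 with all libraries.

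**Figure D1:**
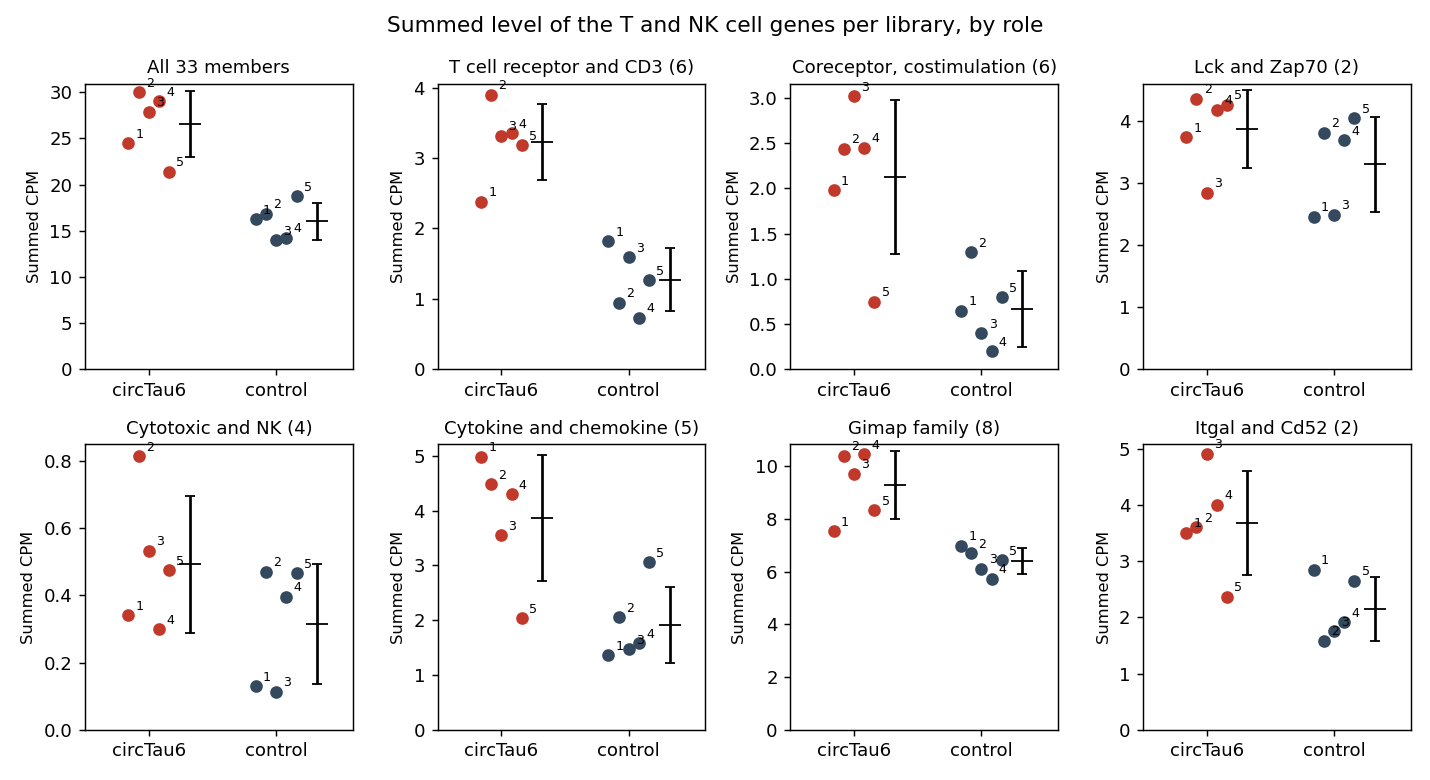
Summed CPM of the 33 genes and of each of their 7 roles (number of genes in parentheses) in 5 circTau6 and 5 control libraries; points are libraries with their replicate number, and bars are the mean ± SD. All 33 members together, the receptor and CD3 genes and the Gimap family show no overlap between the groups, while Lck with Zap70 and the cytotoxic genes overlap broadly.

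Of the 33 members, 31 had a higher mean CPM in circTau6 mice and 2 a lower one. Among all 4967 genes whose total counts lay within the range of the members (5 to 577 over the 10 libraries), 61.2% had a higher mean in circTau6, so scarce genes in general leaned that way. The median log2 ratio of mean CPM was 1.05 over the 32 members with any control count and 0.13 over the 4800 genes of that range with counts in both groups. In CPM, every circTau6 library lay above every control library for 2 members, Gimap3 and Cd8a. The same held for 0.705% of the genes in that range and 0.596% of all 18301 genes with a count. No member had the reverse order.

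Only 10 members passed the count filter of edgeR, a test for count data fitted here to 14396 genes, so the other 23 have no p from it. The filter keeps genes with enough reads in at least 1 group's worth of libraries, and some members may have passed only through the group where they were higher. Of the 10, 0 were called at a Benjamini-Hochberg adjusted p under 0.05, as were 0% of all genes tested, and the lowest edgeR adjusted p of a member was 0.981. Of the same 10, 3 had an unadjusted p under 0.05 with higher values in circTau6, a class that holds 2.58% of all tested genes. Fitted without the filter, 12 of 33 members were in that class, against 2.79% of 18301 genes, and again 0 were called. DESeq2, a second count test, also called 0 members, against 0.0973% of the genes it gave an adjusted p, and gave none for 22 of the 33. It put 10 members at an unadjusted p under 0.05 with higher values in circTau6, against 2.35% of all genes. The lowest DESeq2 adjusted p of a member was 0.0775, for Gimap3. The FDR of the authors' deposited table is under 0.05 for 0 members and for 0.0364% of all genes (8 genes). The lowest FDR of a member in the authors' deposited table is that of Gimap3, 0.089. For 11 members the authors' deposited table gives a p under 0.05 and a higher value in circTau6, as it does for 2.9% of all genes. Nothing is read from these counts about the list, since it was drawn up on the same comparison.

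Detection itself varied. Of the 33 members, 16 had at least 1 count in all 10 libraries. At least 1 count was found for 29 to 31 members in each circTau6 library, against 22 to 28 in each control library. At least 3 counts were found for 18 to 28 members in each circTau6 library, against 15 to 19 in each control library, with the 18 in circTau6 library 5.

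**Figure D2:**
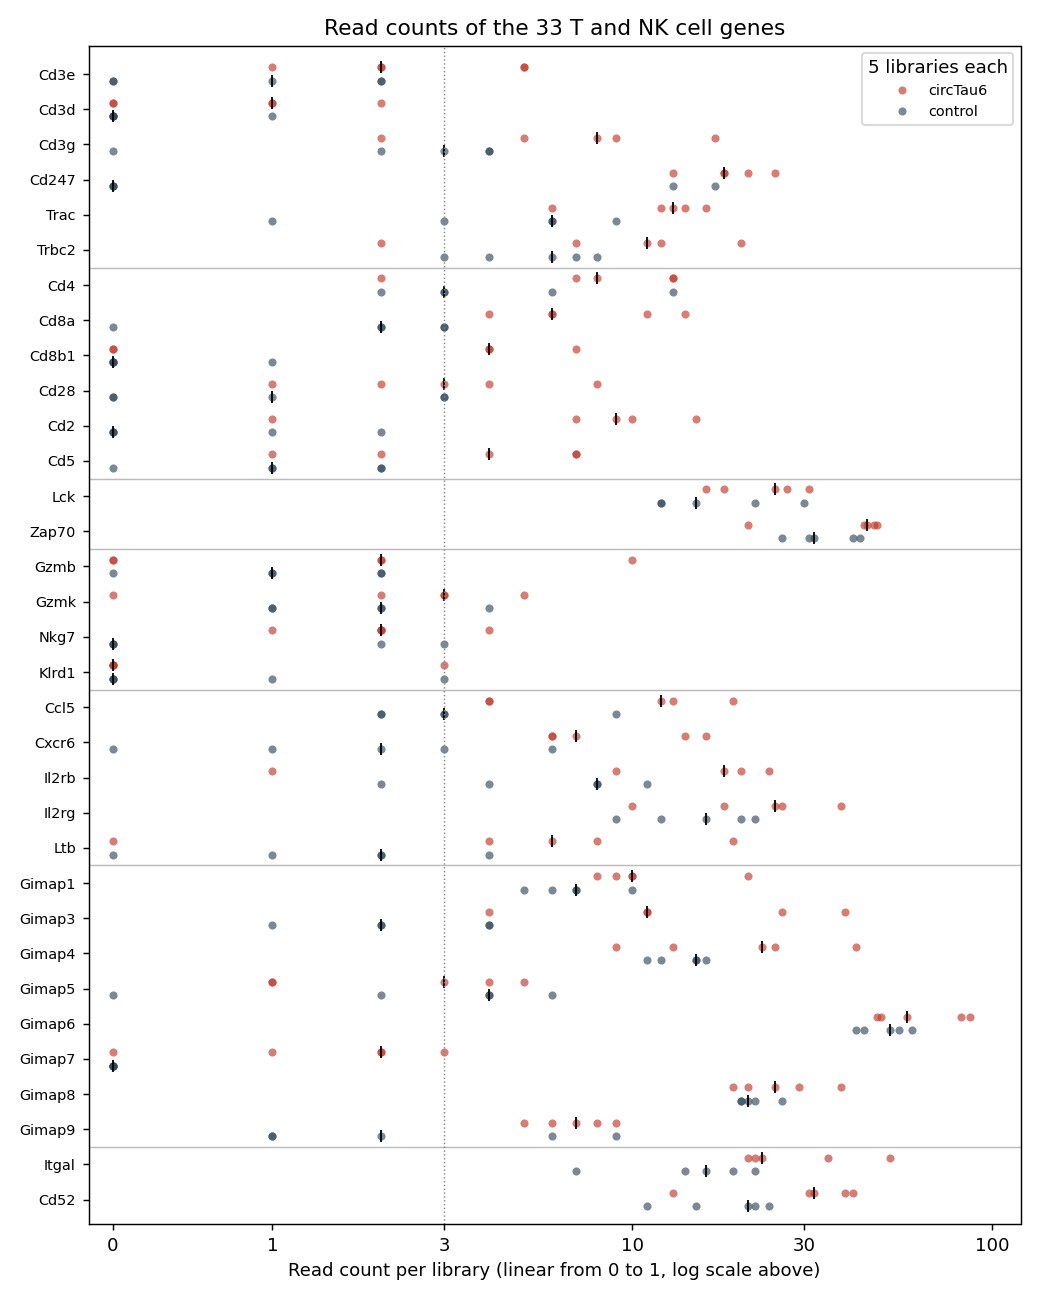
Read counts of each of the 33 genes in 5 circTau6 (upper row of each gene) and 5 control libraries (lower row), with the median as a tick, grouped by role; the dotted line marks 3 counts. Gimap6 has the most counts, and 17 of the 33 genes are at 0 in at least 1 library. Cd8a shows the circTau6 points above all control points. For Gimap3 the lowest circTau6 count ties with the highest control count, at 4, and the groups separate only in CPM.

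The receptor and CD3 genes, which define T cells, were present at very low levels and were higher in circTau6 mice as a sum. The 6 genes summed to 3.22 CPM ± 0.546 (SD, n = 5) in circTau6 and 1.26 CPM ± 0.447 (SD, n = 5) in control mice, a ratio of 2.55 with no overlap. Trac, the constant region of the receptor's alpha chain, had 14, 12, 13, 16 and 6 counts in circTau6 libraries 1 to 5, against 1, 6, 6, 3 and 9 in control libraries 1 to 5. Its circTau6 libraries exceeded every control library in 4 of 5 cases, and its edgeR log2 fold change was 1.19 ± 0.45 (SE). Trbc2, a constant region of the beta chain, had 2, 11, 7, 12 and 20 counts in circTau6 libraries 1 to 5, against 6, 3, 4, 8 and 7 in control libraries 1 to 5. Library 5 of the circTau6 group held the highest Trbc2 count and library 1 the lowest, so the groups overlapped. Trbc2 shares 44.0% of its 50-base stretches with another gene, Trbc1, the other beta constant region.

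Among the CD3 subunits, Cd3g had 5, 17, 9, 8 and 2 counts in circTau6 libraries 1 to 5, against 2, 4, 4, 0 and 3 in control libraries 1 to 5. In the circTau6 group 4 libraries exceeded all controls, and library 5 lay within the control range. Cd3e had 2, 5, 2, 5 and 1 counts in circTau6 libraries 1 to 5, against 2, 2, 1, 0 and 0 in control libraries 1 to 5. Cd3d, the third subunit, was close to absent, with 1, 1, 0, 2 and 0 counts in circTau6 libraries 1 to 5, against 0, 1, 0, 0 and 0 in control libraries 1 to 5. Its counts give a ratio of 3.86 with a 95% interval of 0.382 to 190, which covers counting error only and spans 1.

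Cd247, the zeta chain through which the receptor signals, behaved unlike the other subunits. It had 18, 21, 25, 13 and 18 counts in circTau6 libraries 1 to 5, against 17, 0, 13, 0 and 0 in control libraries 1 to 5. All 5 circTau6 libraries and control libraries 1 and 3 held at least 13 counts, while control libraries 2, 4 and 5 were listed at 0, with nothing in between. Over all genes, 12 show this pattern, Cd247 included, with 2 to 5 libraries at 0 and at least 13 counts in all others. The longest Cd247 transcript shares 84.0% of its 50-base stretches, on either strand, with other genes, chiefly Pou2f1, which overlaps it on the opposite strand. Whether the assignment of such reads moved the Cd247 row was not tested. Without it the other 5 receptor and CD3 genes summed to 2.08 CPM ± 0.545 (SD, n = 5) in circTau6 and 0.898 CPM ± 0.224 (SD, n = 5) in control mice, a ratio of 2.32, still with no overlap.

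Coreceptors and costimulatory genes had the largest fold of the roles, from a few counts per library. Their 6 genes summed to 2.13 CPM ± 0.857 (SD, n = 5) in circTau6 and 0.666 CPM ± 0.419 (SD, n = 5) in control mice, a ratio of 3.20. Cd8a, the alpha chain of the CD8 coreceptor of cytotoxic T cells, had 11, 14, 4, 6 and 6 counts in circTau6 libraries 1 to 5, against 2, 2, 3, 0 and 3 in control libraries 1 to 5. All circTau6 libraries lay above all controls in CPM, with means of 0.488 CPM ± 0.230 (SD, n = 5) in circTau6 and 0.123 CPM ± 0.0762 (SD, n = 5) in control mice. Its partner chain Cd8b1 had 4, 0, 7, 4 and 0 counts in circTau6 libraries 1 to 5, against 1, 0, 0, 0 and 0 in control libraries 1 to 5. The group totals of Cd8b1, 15 counts in circTau6 against 1 in control mice, give a ratio of 14.5 with a counting interval of 2.23 to 610. Cd4, the coreceptor of helper T cells that some macrophages also carry, had 7, 8, 13, 13 and 2 counts in circTau6 libraries 1 to 5, against 3, 13, 3, 2 and 6 in control libraries 1 to 5. Cd4 overlapped between the groups, its highest control count equalling its highest circTau6 count, and its mean CPM ratio was 1.53, or 2.69 without the choroid-poor library of each group.

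Cd2, an adhesion receptor of T and NK cells, falls below the level set for individual description and is given because of its values. It had 7, 10, 15, 9 and 1 counts in circTau6 libraries 1 to 5, against 0, 2, 0, 1 and 0 in control libraries 1 to 5. Its group totals of 42 counts in circTau6 against 3 in control mice give a ratio of 13.5 with a counting interval of 4.32 to 68.2, and only circTau6 library 5 overlapped the controls. The other 2 genes of this role, the inhibitory surface protein Cd5 and the costimulatory receptor Cd28, had 1 to 8 counts in circTau6 and 0 to 3 counts in control libraries.

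The kinases Lck and Zap70 were among the most abundant members and differed little. With them, Gimap6 and Gimap8 set aside, the other 29 members held 59.9% of the member counts. Which cells held the transcripts of these abundant members was not tested. Lck had 18, 31, 27, 25 and 16 counts in circTau6 libraries 1 to 5, against 12, 22, 12, 15 and 30 in control libraries 1 to 5, and Zap70 had 48, 44, 21, 45 and 47 counts in circTau6 libraries 1 to 5, against 26, 43, 32, 41 and 31 in control libraries 1 to 5. Both overlapped broadly, and the edgeR log2 fold changes were 0.27 ± 0.32 (SE) for Lck and 0.18 ± 0.26 (SE) for Zap70.

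Cytotoxic and NK genes were at or near the detection limit in both groups. The 4 genes summed to 0.492 CPM ± 0.204 (SD, n = 5) in circTau6 and 0.315 CPM ± 0.179 (SD, n = 5) in control mice, with overlap. Gzmb, encoding granzyme B, ranged from 0 to 10 counts in circTau6 and 0 to 2 in control libraries, and circTau6 library 2 held 10 of its group's 14 counts. Gzmk, encoding granzyme K, had 0 to 5 counts in circTau6 and 1 to 4 in control libraries. Nkg7, a granule membrane protein, had 1 to 4 counts in circTau6 and 0 to 3 in control libraries. Klrd1, the CD94 chain of NK receptors, had 3 counts in 1 circTau6 library and 4 counts over the control group, and was the other member with a lower mean in circTau6. The 4 NK receptor genes of the wider list described further on were scarce too and did not share a direction, and they were singled out after their values were seen. Klrk1, the NKG2D receptor that CD8 T cells also carry, had 6, 6, 1, 7 and 5 counts in circTau6 libraries 1 to 5, against 0, 1, 0, 0 and 1 in control libraries 1 to 5. Klrc1, the NKG2A chain that pairs with Klrd1, had 10 counts over circTau6 and 0 over control libraries. Ncr1 had 2 counts over circTau6 and 0 over control libraries, and Klrb1c had 2 counts over circTau6 and 6 over control libraries.

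The cytokine and chemokine genes summed to 3.87 CPM ± 1.15 (SD, n = 5) in circTau6 and 1.91 CPM ± 0.696 (SD, n = 5) in control mice, a ratio of 2.03. The groups overlapped, with circTau6 library 5 at 2.032 CPM and control library 5 at 3.056 CPM. Cxcr6, a chemokine receptor of tissue-resident T cells, had 14, 16, 6, 6 and 7 counts in circTau6 libraries 1 to 5, against 6, 3, 0, 1 and 2 in control libraries 1 to 5. Only control library 1 reached into the circTau6 range, and the mean CPM ratio was 3.82, or 6.21 without that library. Ccl5, a chemokine made by activated T and NK cells and also by other cells, had 12, 19, 13, 4 and 4 counts in circTau6 libraries 1 to 5, against 3, 2, 2, 3 and 9 in control libraries 1 to 5. Control library 5 was apart from the other controls for Ccl5 and lay within the circTau6 range. Il2rb, a receptor chain for interleukins 2 and 15, had 18, 24, 9, 20 and 1 counts in circTau6 libraries 1 to 5, against 2, 8, 8, 4 and 11 in control libraries 1 to 5. Its lowest value of all libraries was in circTau6 library 5. Ltb, encoding lymphotoxin beta, ranged from 0 to 19 counts in circTau6 and 0 to 4 in control libraries, with the 0 of circTau6 again in library 5. Il2rg, the common cytokine receptor chain, had 25, 10, 26, 38 and 18 counts in circTau6 libraries 1 to 5, against 9, 20, 12, 16 and 22 in control libraries 1 to 5. It overlapped between the groups at 0.48 ± 0.36 (SE) on the log2 scale. Of its 50-base stretches, 42.0% also belong to Gm20489, an annotated gene that overlaps it.

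The Gimap family held 36.8% of the member counts and was higher in circTau6 mice as a sum, by less than the receptor genes. It summed to 9.29 CPM ± 1.305 (SD, n = 5) in circTau6 and 6.40 CPM ± 0.487 (SD, n = 5) in control mice, a ratio of 1.45, and the ranges of 7.54 to 10.5 CPM in circTau6 and 5.74 to 6.99 CPM in control libraries did not overlap. Gimap3 had 11, 26, 11, 39 and 4 counts in circTau6 libraries 1 to 5, against 4, 4, 2, 1 and 2 in control libraries 1 to 5. The circTau6 group spread widely, with 1.08 CPM ± 0.837 (SD, n = 5) against 0.161 CPM ± 0.0824 (SD, n = 5) in control mice, a ratio of 6.69, and its library 5, at 0.271 CPM, lay just above the highest control, at 0.259 CPM. Without Gimap3 the other 7 genes summed to 8.21 CPM ± 0.854 (SD, n = 5) in circTau6 and 6.24 CPM ± 0.408 (SD, n = 5) in control mice, a ratio of 1.32, and still did not overlap.

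Of the other Gimap genes with counts in both groups, each had a smaller ratio than Gimap3. Gimap6, the most abundant, had 49, 82, 87, 48 and 58 counts in circTau6 libraries 1 to 5, against 60, 55, 52, 42 and 44 in control libraries 1 to 5, with a log2 fold change of 0.28 ± 0.20 (SE). Gimap8 had 38, 29, 19, 25 and 21 counts in circTau6 libraries 1 to 5, against 21, 26, 22, 20 and 20 in control libraries 1 to 5, with a log2 fold change of 0.20 ± 0.24 (SE). Gimap4 was even among controls and scattered in circTau6 mice, with 13, 23, 25, 42 and 9 counts in circTau6 libraries 1 to 5, against 15, 16, 15, 12 and 11 in control libraries 1 to 5. The SD of Gimap4 was 0.757 CPM in circTau6 and 0.100 CPM in control mice, and in circTau6 mice library 4 was highest and library 5 lowest for both Gimap4 and Gimap3. Gimap1 had 8, 10, 9, 10 and 21 counts in circTau6 libraries 1 to 5, against 5, 7, 10, 6 and 7 in control libraries 1 to 5, and its high value came from circTau6 library 5, which was otherwise low for many members. Gimap9 had 8, 5, 9, 6 and 7 counts in circTau6 libraries 1 to 5, against 1, 6, 1, 2 and 9 in control libraries 1 to 5, and overlapped. Gimap5, the close copy of Gimap3, had 14 counts over circTau6 and 16 over control libraries. Gimap7 had 8 counts over circTau6 and 0 over control libraries, or 2.58-fold against a floor of 3 counts over the control group. The lower end of the counting interval of its ratio was 1.65.

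**Figure D3:**
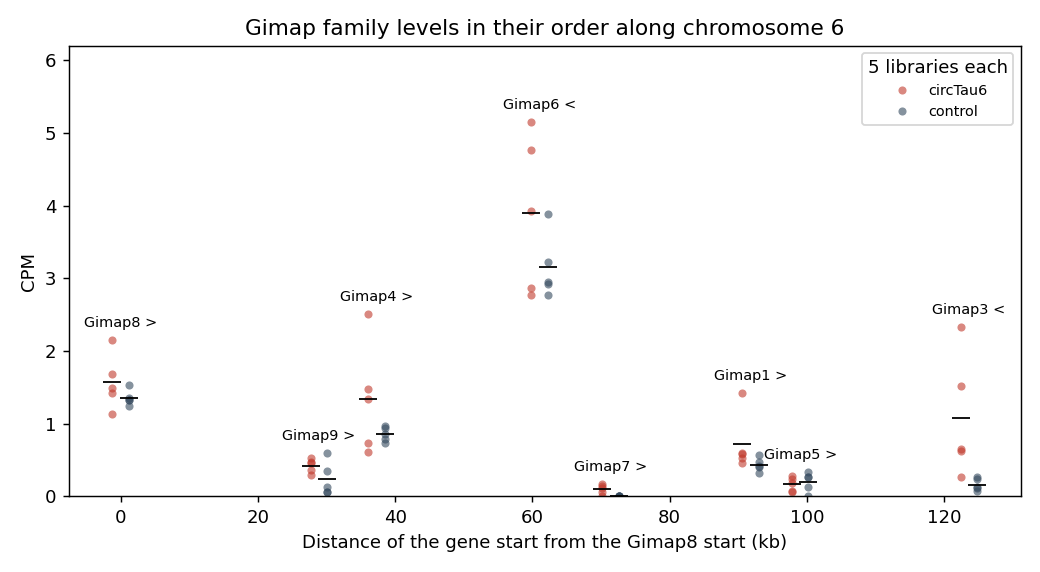
CPM of the 8 Gimap genes, placed by the distance of their start from that of Gimap8 and with an arrow for strand, in 5 circTau6 (left of each position) and 5 control libraries (right); dashes are means. Gimap6 is the most abundant with overlapping groups, Gimap3 at the far end differs most (1.08 CPM in circTau6 and 0.161 CPM in control mice), and its copy Gimap5 is low in both.

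Itgal and Cd52 are leukocyte genes that microglia and macrophages can also express. Itgal, the alpha chain of the integrin LFA-1, had 21, 23, 52, 35 and 22 counts in circTau6 libraries 1 to 5, against 22, 16, 7, 14 and 19 in control libraries 1 to 5, and a log2 fold change of 0.87 ± 0.35 (SE). Library 3 of the circTau6 group was highest and 3 of 5 circTau6 libraries lay above every control. Cd52, a small surface glycoprotein, had 41, 39, 31, 32 and 13 counts in circTau6 libraries 1 to 5, against 22, 11, 24, 15 and 21 in control libraries 1 to 5, and a log2 fold change of 0.65 ± 0.30 (SE). All but circTau6 library 5 lay above every control. On the deposited TPM scale, which corrects for transcript length, Cd52 had the highest level of the members, with 8.87 TPM in circTau6 and 5.62 TPM in control mice on average. Gimap6 followed with 5.44 TPM in circTau6 and 4.65 TPM in control mice, and Zap70 with 3.33 TPM in circTau6 and 2.52 TPM in control mice. The mean of Trac was 2.28 TPM in circTau6 and 1.05 TPM in control mice, and that of Cd8a 0.394 TPM in circTau6 and 0.103 TPM in control mice.

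Across genes, circTau6 library 5 held the lowest or tied lowest value of its group for 15 of 33 members, against 4 to 7 members for each other circTau6 library. Its receptor and CD3 sum, at 3.18 CPM, was nevertheless within the range of the other circTau6 libraries, 2.38 to 3.90 CPM. Its coreceptor sum, at 0.745 CPM, was the lowest of the group and inside the control range of 0.198 to 1.29 CPM. Among control libraries, library 4 had the fewest members with a count, 22.

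A wider list of 44 other T and NK cell genes was followed alongside. Of these, 7 passed the edgeR filter and 0 were called. Of the 7, 1 had an unadjusted p under 0.05 with a higher value, a class that holds 2.58% of all tested genes. It was the checkpoint receptor Lag3, which microglia and neurons can also express, at a log2 fold change of 0.52 ± 0.22 (SE). The interleukin 7 receptor Il7r had a log2 fold change of 0.40 ± 0.41 (SE), and the signalling adaptor Lcp2 had 0.14 ± 0.16 (SE). All 44 genes summed to 73.05 to 113.4 CPM in circTau6 and 90.17 to 96.28 CPM in control libraries. These ranges overlapped, and the log2 ratio was 0.10. Most of that sum was Itga4, with means of 71.7 CPM in circTau6 and 73.1 CPM in control mice. Of the 44 genes, 40 had total counts no higher than the most abundant member of the main list. These 40 gave 203, 217, 176, 245 and 139 counts in circTau6 libraries 1 to 5, against 99, 156, 103, 78 and 119 in control libraries 1 to 5. Of the 40, 31 had a higher mean CPM in circTau6 and 9 a lower one, against 61.2% higher among genes in the count range of the members. Control library 2 held more of these counts than circTau6 library 5, but scaled to library size the lowest circTau6 library, at 9.41 CPM, was just above the highest control library, at 9.16 CPM. For 3 of the 40, Cxcr3, Ccr7 and Gata3, every circTau6 library lay above every control, against 0.705% of the genes in the count range of the members, and they were named after this was seen. Cxcr3, a chemokine receptor of effector T cells, had 9, 2, 3, 10 and 2 counts in circTau6 libraries 1 to 5, against 1, 0, 0, 1 and 0 in control libraries 1 to 5. The effector genes Prf1, Gzma and Ifng had at most 2 counts in any library. Fasl, another effector gene of this list, had more, with 1, 9, 10, 5 and 3 counts in circTau6 libraries 1 to 5. Its control libraries 1 to 5 had 1, 0, 0, 2 and 4 counts.

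Ligands and partners of these receptors were more abundant. Of 17 genes listed, 16 were in the table and 9 were tested with edgeR, with 0 called. Of the 9, 3 had an unadjusted p under 0.05 and higher values, a class that holds 2.58% of all tested genes. Their median log2 fold change, over the 9, was 0.34, against 0.00 over all tested genes. The 3 were the costimulatory ligand Cd86 at 0.69 ± 0.24 (SE), the LFA-1 ligand Icam1 at 0.66 ± 0.23 (SE) and the Cxcr6 ligand Cxcl16 at 0.50 ± 0.20 (SE). Cd80, the other ligand of Cd28, had −0.45 ± 0.28 (SE). Of the 16 genes, 13 had a higher mean CPM in circTau6 and 3 a lower one. Cxcl10, a Cxcr3 ligand, overlapped between the groups, at 0.77 ± 0.50 (SE). Cxcl9, another Cxcr3 ligand, was below the filter and is given because of its values. Cxcl9 had 27, 55, 27, 39 and 7 counts in circTau6 libraries 1 to 5, against 9, 4, 6, 1 and 2 in control libraries 1 to 5. In circTau6 library 5, the lowest of its group for many T cell genes, Cxcl9 was lowest too. The MHC class I list also holds genes that supply its peptides, such as Tap1 and Psmb8. It summed to 280 to 448 CPM in circTau6 and 192 to 304 CPM in control libraries. The lowest p in that list belonged to H2-T22, Psmb8, H2-K1 and H2-Q7, at log2 fold changes of 0.46 ± 0.10 (SE), 1.025 ± 0.23 (SE), 0.78 ± 0.17 (SE) and 1.45 ± 0.36 (SE), none of them called. The MHC class II list, with Cd74 and Ciita in it, summed to 20.1 to 89.0 CPM in circTau6 and 22.04 to 26.4 CPM in control libraries. The lowest p in this list was that of H2-Aa, with a log2 difference of 1.595 ± 0.43 (SE). After it came H2-Eb1 with 1.67 ± 0.48 (SE), H2-Ab1 with 1.51 ± 0.47 (SE) and Cd74, the chaperone of class II molecules, with 1.43 ± 0.44 (SE). None of them was called. The 20.1 CPM was again that of circTau6 library 5.

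Markers of other cells differed to varying degrees beside the T and NK genes, and their part in the differences was not tested. The 11 microglia markers in the table summed to 433 CPM ± 11.3 (SD, n = 5) in circTau6 and 389 CPM ± 13.5 (SD, n = 5) in control mice, without overlap, and 10 of 11 had a higher mean in circTau6. Their log2 ratio was 0.15, against 0.73 for the T and NK sum. Endothelial markers summed to 349 to 452 CPM in circTau6 and 331 to 384 CPM in control libraries, with 10 of 11 higher. Border macrophage and monocyte markers summed to 12.2 to 32.6 CPM in circTau6 and 10.03 to 19.7 CPM in control libraries, with 9 of 10 higher, and dendritic cell markers to 19.1 to 23.4 CPM in circTau6 and 17.2 to 20.9 CPM in control libraries, with 6 of 8 higher. B and plasma cell markers ranged from 18.4 to 174 CPM in circTau6 and 22.3 to 70.0 CPM in control libraries, with 7 of 10 higher. Their lowest value was in circTau6 library 1, where the T and NK sum was 24.5 CPM, above every control. Meningeal fibroblast markers summed to 138 to 531 CPM in circTau6 and 173.5 to 379.5 CPM in control libraries, with 9 of 10 higher, and neutrophil markers to 0.989 to 4.185 CPM in circTau6 and 0.176 to 3.23 CPM in control libraries, with 6 of 8 higher and 1 of 8 at 0 throughout. Red cell markers, a measure of blood in the tissue, summed to 2.98 to 17.4 CPM in circTau6 and 7.39 to 63.0 CPM in control libraries, with 5 of 5 genes lower in circTau6. That direction rested on control library 3, which held the 63.0 CPM: without it, a choice made after the data were seen, the sums averaged 12.92 CPM in circTau6 and 11.96 CPM in control mice, and 3 of 5 genes were higher in circTau6. Astrocyte and oligodendrocyte markers overlapped between the groups, with log2 ratios of 0.02 and 0.01.

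**Figure D4:**
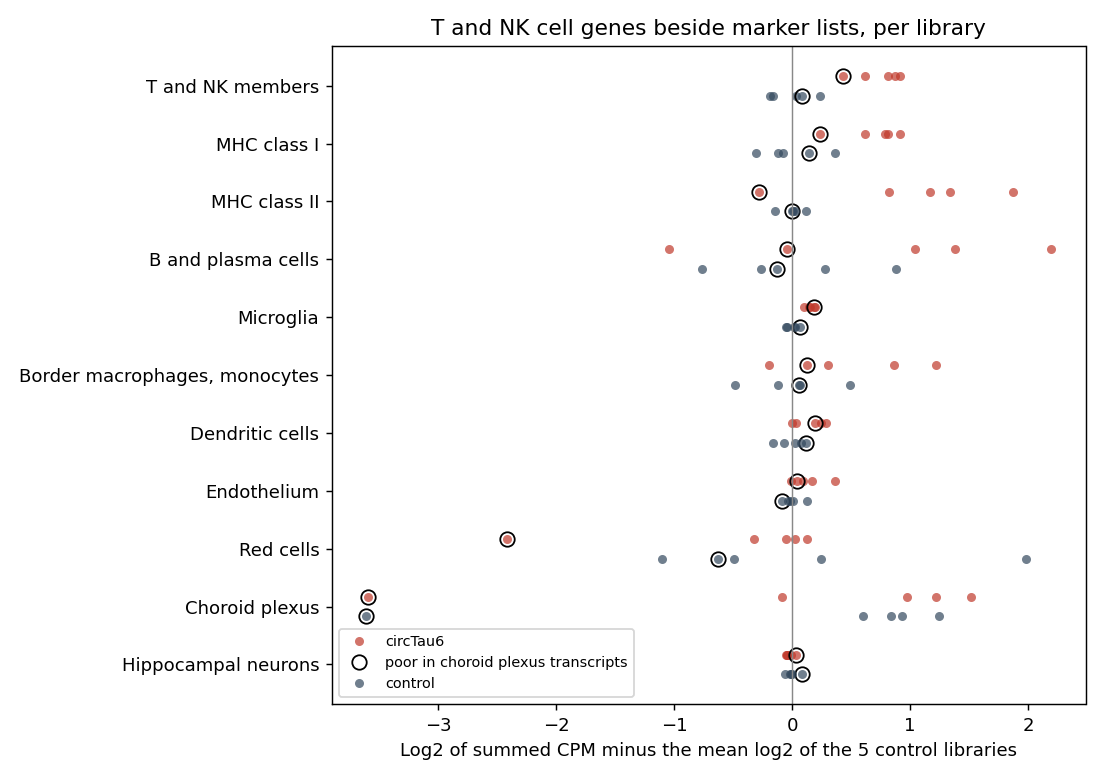
Log2 of the summed CPM of each list minus the mean log2 of the 5 control libraries, for 5 circTau6 (upper row) and 5 control libraries (lower row); rings mark the library of each group poor in choroid plexus transcripts. The T and NK sum lies above the controls in all 5 circTau6 libraries, as do microglia by a smaller distance, while MHC class II and red cell markers are lowest in circTau6 library 5.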

How the data were processed

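RNA of hippocampus was rRNA-depleted and sequenced strand-specifically as paired 150 bp reads, per the labels' protocols. The authors deposited 1 table with raw counts and TPM per gene and library, plus the log2 ratio of their group means and their own p-values and FDR, per the file headers. StringTie 1.3.1 and RSEM appear, without roles, per the submitters' processing notes. Aligner, build and strand setting: not given in the sources used here. Counts were used as deposited, CPM are counts over the library total, and groups follow the treatment label. The labels do not state how replicates were drawn, so p-values describe the spread among these samples, 5 a group. No 2 libraries were alike within sampling noise (45 pairs). Coordinates come from GENCODE M21 by gene ID (33 of 33 matched).

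Genes were tested across the whole table with edgeR 4.0.16 in R 4.3.3 (filterByExpr, TMM, robust quasi-likelihood F test, Benjamini-Hochberg adjustment, threshold 0.05) and, as alternatives, DESeq2 1.42.0 and limma 3.58.1 voom, all tested on simulated data. SE is the log2 fold change over the root of F. Sums over members carry no test. Intervals of count ratios are exact conditional binomial intervals at 95%. Members, lists and tests were chosen with earlier results of these data known. Members with at least 50 counts in all, past the filter, or coding receptor, CD3, CD4 or CD8 chains are given by library, others by range, and of each related list the 4 tested genes with the lowest p. One result under this rule is not reported here. Library numbers are the replicate numbers of the labels.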

Additional observations from a re-analysis of the deposited data

Results flagged for a closer look

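Of 70 groups of 5 values examined, 4 held 1 library far from the other 4. The rule used marks about 1 in 20 groups by chance when values are normally distributed. That rate does not hold for counts this low, where 1 read in a group otherwise at 0 is always marked. Ccl5 stood at 0.598 CPM in control library 5, where the other controls had 2 or 3 counts. Gimap1 stood at 1.42 CPM in circTau6 library 5, where the others had 8 to 10 counts. The others are single reads, 1 count of Cd3d in control library 2 (0.0587 CPM) and 1 count of Cd8b1 in control library 1 (0.0647 CPM), each in a group otherwise at 0.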

How the results depend on the processing

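The number of genes called higher after circTau6 was 0 in the edgeR fit, 14 with DESeq2, 2 with limma voom, 2 with library totals in place of TMM, 0 with DESeq2 size factors in edgeR, 2 without the count filter, 3 with both choroid-poor libraries left out, and 0 to 4 when each library was left out in turn, with 4 without circTau6 replicate 5 and 1 without control replicate 1 or 3. With the replicate number as a block (replicate block) it was 4, but same-numbered libraries did not deviate together, with correlations of −0.08 to 0.14, and only 1 of 5 matched its own number best. No gene was called lower under any of these settings, and 0 members were among the genes called. The log2 ratio of all 33 members, 0.73, ranged from 0.68 to 0.80 when each library was left out; without Gimap3 it was 0.69 and without Cd247 0.70, both chosen after the data were seen. The ratio of the 18 receptor, coreceptor, kinase and cytotoxic genes was 0.81, and 1.09 without Zap70, their most abundant member, with 0.74 to 0.88 when each library was left out. That of the Gimap family was 0.54, and 0.73 without Gimap6, with 0.49 to 0.61 when each library was left out. Leaving out members that brain cells also express gave 0.76 for the whole list and 0.94 for the 18 genes. All 342 alternative values of 21 single members kept the direction of the main value. These 21 all had a higher mean in circTau6. Gimap5 and Klrd1, the members with a lower mean, were not among them, nor were Cd3d, Cd8b1 and other scarce members. Low counts limit the comparison, with 17 of 33 members at 0 in at least 1 library.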
